A study of Ovis aries with 2 samples.

Results

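Deep barcodes of sheep testis that carry the round spermatid gene SPACA1 but little HMGB4 RNA were described in 2 single-cell libraries, a control library and a library labelled ZEA. A barcode was a member when it held at least 5000 UMIs (unique molecular identifiers, each counting 1 captured RNA molecule) and at least 2 UMIs of SPACA1, with at most 4 UMIs of AURKA and 2 of PIWIL1. It also had no UMI of VWF or CDH5, at most 4 of ACTA2 and DCN together, and HMGB4 under 2000 CPM (UMIs scaled to a total of 1000000 per barcode). Of 15839 barcodes in all, 80 met the rule, 35 of 7030 in the control library and 45 of 8809 in the ZEA library. Since they were selected on measured UMIs of SPACA1, AURKA, PIWIL1, HMGB4 and the 4 other genes, the values of those genes are a description and support nothing. The working name of these cells was early round spermatids, and it was checked against other genes.

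Both libraries came from whole testis at an age of 8 months and were made with 10x Genomics 3' gel beads of version V3. The labels give the treatment of the second library as ZEA0.75, with no unit for the number and no account of how or to what it was given. ZEA commonly stands for zearalenone, a fungal toxin with oestrogenic activity. The study's own text presents it as one of harm to the testis by ZEA. Each group is 1 library, so no difference between them has a replicate check, and animal, preparation and treatment cannot be told apart.

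Round spermatids are the haploid cells left by the second meiotic division. They build the acrosome, the enzyme-filled cap over the sperm nucleus, from Golgi vesicles, begin the flagellum, and store mRNA for later stages. Their histones are afterwards replaced by transition proteins and then by protamines. AURKA, a spindle kinase, marks cells that prepare for or undergo division, and PIWIL1, a partner of piRNAs, marks pachytene spermatocytes. HMGB4 is a chromatin protein of the testis that accumulates in spermatids, and SPACA1 is a membrane protein of the acrosome.

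The control library held 53044981 UMIs and the ZEA library 22148456, and 3404 and 1137 barcodes reached 5000 UMIs. Members made up 1.03% of these deep barcodes in the control library (95% exact interval 0.717% to 1.43%) and 3.96% in the ZEA library (2.90% to 5.26%). Of the barcodes that met every gate but that on HMGB4, they were 35 of 1564 (2.24%, 1.56% to 3.1%) in the control library and 45 of 392 (11.5%, 8.50% to 15.1%) in the ZEA library. All intervals cover counting error only. The libraries shared 15 barcode sequences, none of them a member, and the doublet caller Scrublet marked 0 members. It marked 205 control barcodes (2.92%) and 2 ZEA barcodes (0.0227%). With so few marks in the ZEA library, 0 marked members there cannot show that they are free of doublets. Control members held 5238 to 12706 UMIs (median 9314) with a median of 2798 genes, and ZEA members 5488 to 26840 (median 10271) with 2956 genes. To give each member the same depth and weight, levels below are CPM of the sum over members thinned to 5000 UMIs each, while ranges and medians over members are of the full single barcodes.

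The HMGB4 gate met a different distribution in each library. In the control library HMGB4 in members ran from 322 to 1926 CPM (median 908), the 3 members nearest the gate were at 1926, 1736 and 1527, and the first barcodes outside were at 2329, 2631 and 2657. Among control barcodes that met the other gates, 18 lay at 500 to 1000, 12 at 1000 to 1500, 3 at 1500 to 2000, 1 at 2000 to 2500, and 1479 at 4000 or more. Control members thus formed a small group below a thinly filled stretch. In the ZEA library HMGB4 ran from 91.7 to 1999 (median 1672), with 30 of 45 members at 1500 to 2000, the 3 nearest the gate at 1999, 1998 and 1994, and the next outside at 2003, 2004 and 2020. The ZEA barcodes went on without a gap across the gate, with 47 barcodes at 2000 to 2500 and 55 at 2500 to 3000, so the gate cut through a continuous range there.

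The other gates also held the members of the 2 libraries at different places. SPACA1 was at the minimum of 2 UMIs in 21 of 35 control members and reached at most 5, while 10 of 45 ZEA members had 2 and the highest had 14. AURKA was at 3 or 4 UMIs in 26 control members (12 at 3 and 14 at 4), and it was at 0 or 1 in 30 ZEA members (15 at each). With only the AURKA gate lifted, 129 further control barcodes entered, 29 of them at 5 UMIs, against 4 further ZEA barcodes.

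**Figure D1:**
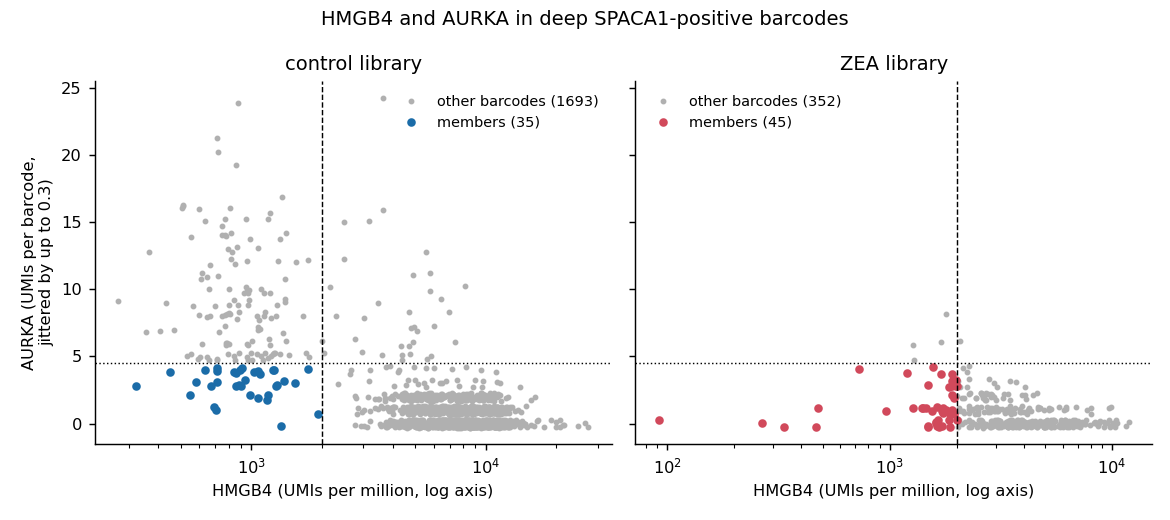
HMGB4 (CPM of the barcode, log axis) against AURKA (UMIs per barcode) in deep barcodes with at least 2 SPACA1 UMIs, 1 point per barcode and 1 panel per library, with lines at the 2 gates. Control members sit below a thinly filled stretch of HMGB4 and mostly at 3 or 4 AURKA UMIs, whereas ZEA members adjoin the barcodes of higher HMGB4.

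Neighbouring classes of deep barcodes, 4 in number, served for comparison, all free of VWF and CDH5 UMIs and with at most 4 of ACTA2 and DCN. The PIWIL1-high class (46 control barcodes) had at least 3 PIWIL1 UMIs and at most 4 of AURKA, and the AURKA-high class (838 control barcodes) at least 5 of AURKA. The HMGB4-middle class (370 control and 279 ZEA barcodes) and the HMGB4-high class (1159 and 68) met every gate of the members but had HMGB4 of 2000 to under 6000, or 6000 or more. The ZEA library had 2 PIWIL1-high and 5 AURKA-high barcodes, too few to compare.

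The round spermatid marker that the rule did not use, ACRV1 (an acrosomal vesicle protein), differed between the members of the 2 libraries. In control members 12 of 35 had an ACRV1 UMI, with 0 CPM as the lowest and the median and 268 as the highest. In ZEA members 36 of 45 had one, from 0 to 1193 CPM with a median of 155. At equal depth ACRV1 stood at 51.4 CPM in control members (9 UMIs, 23.5 to 97.6) and 217.8 CPM in ZEA members (49 UMIs, 161.1 to 287.9). The control value lies near the 32.5 CPM of AURKA-high barcodes, and the ZEA value lies below the 312.5 and 297.3 CPM of the HMGB4-middle class in the ZEA and control libraries. Free RNA was gauged in 1269 ZEA barcodes with at least 3 UMIs of VWF and CDH5 (median 4243 UMIs), which should lack germ cell genes, and 3.86% of them had an ACRV1 UMI, at 11.1 CPM. The control library had 2 such barcodes, too few to serve.

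Each member was then set against the summed profiles of the neighbouring classes, by the log likelihood of its UMIs with the genes of the rule left out. Among control profiles, 34 of 35 control members were most like the AURKA-high class, 1 was most like the PIWIL1-high class and 0 were most like either HMGB4 class. Of the 45 ZEA members, 34 were most like the HMGB4-middle class, 4 the HMGB4-high, 4 the AURKA-high and 3 the PIWIL1-high class. All 3 of the last and 2 of the HMGB4-high matches were ZEA members under 500 CPM of HMGB4, described later. The control profiles held no somatic class, and 502 of 510 deep endothelial-marked ZEA barcodes were also placed in the PIWIL1-high class. The log likelihood per 1000 UMIs of the HMGB4-middle profile minus that of the AURKA-high profile ran from -490 to -74.5 in control members (median -314), above 0 in 0 of 35. In ZEA members it ran from -353 to 429 (median 126), above 0 in 36 of 45. The same measure returned 788 of 838 AURKA-high and 363 of 370 HMGB4-middle control barcodes to their own class, although those barcodes had helped to make the profiles. It placed 268 of 279 ZEA HMGB4-middle barcodes, which had not, in the control HMGB4-middle class.

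The name early round spermatids therefore goes against the control data, and the control cells are called HMGB4-low control barcodes or control members below. As a description only, since the rule set both HMGB4 and SPACA1 in the members, the AURKA-high class had a median HMGB4 of 867 CPM, beside 908 in the control members. Of its 838 barcodes, 188 had at least 2 SPACA1 UMIs. For most ZEA members ACRV1 and the profile go with the round spermatid part of the name. No class of early round spermatids was among the profiles, so whether they are early was not tested. The profile of 9 ZEA members did not lie above 0 on that scale, and 7 of those 9 had no ACRV1 UMI: 5 with the least HMGB4, described later, and 2 of the 4 most like the AURKA-high class.

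**Figure D2:**
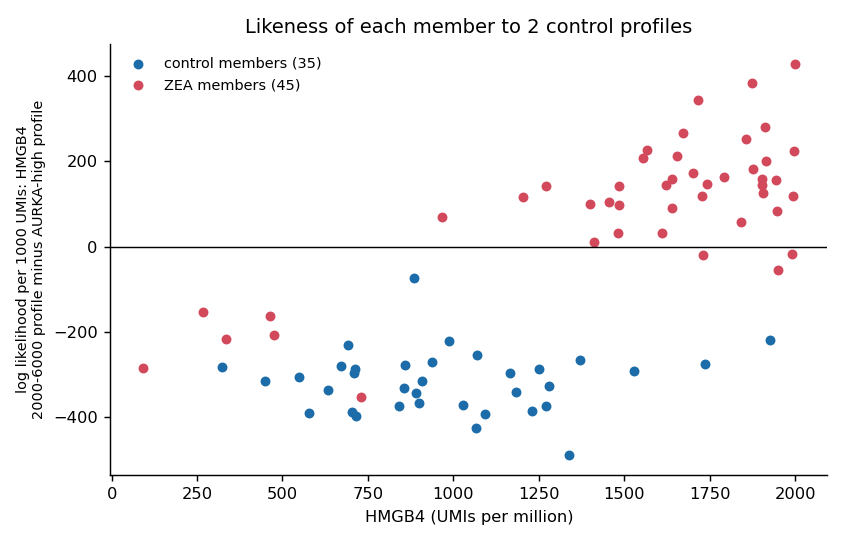
Log likelihood per 1000 UMIs under the control HMGB4-middle profile minus that under the control AURKA-high profile (vertical axis) against HMGB4 in CPM of the barcode, 1 point per member. All 35 control members lie below 0, between -490 and -74.5, and 36 of 45 ZEA members lie above 0.

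Control members differed little from AURKA-high barcodes of their library. Of 1670 genes compared, 4 (0.240%) were at least 2-fold higher in the members and 23 (1.38%) at least 2-fold lower. None of the 15 acrosome genes compared reached 2-fold, with a median log2 ratio of 0.07 against -0.02 over all genes, nor did any of 14 meiotic division genes, with a median of -0.24. The largest named differences were a lower level of LBR, the lamin B receptor of the inner nuclear membrane (74.3 against 274.2 CPM, log2 -1.88, -2.80 to -1.10), and of PARP1, a DNA repair enzyme (45.7 against 152.5 CPM, log2 -1.74, -2.96 to -0.75). MLH3, a crossover protein of meiosis, was at 222.9 against 549.6 CPM (log2 -1.30, -1.80 to -0.85). AP1S2, a subunit of a clathrin adaptor, was higher (308.6 against 144.6 CPM, log2 1.09, 0.66 to 1.5), as was TMEM89 (log2 1.02, 0.68 to 1.34).

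Against PIWIL1-high barcodes, 265 of 1651 genes (16.1%) were at least 2-fold higher in control members and 253 (15.3%) lower. The lowest was H1-6, the testis-specific linker histone of spermatocytes, at 51.4 CPM in control members and 2500 CPM in PIWIL1-high barcodes (log2 -5.60, -6.74 to -4.67), and 4 of 35 control members had a UMI of it. TEX101, a germ cell surface protein, was at 80 against 1617 CPM, with UMIs in 1 of 35 control members. MLH3 was lower here too, at 222.9 against 1504 CPM (log2 -2.75, -3.27 to -2.27). PGAM2, a glycolytic enzyme with high expression in spermatids, was higher at 1377 against 291.3 CPM (log2 2.24, 1.85 to 2.65). Of 25 flagellum genes 10 were higher and 2 lower, and of 11 genes of the chromosome axis and recombination 5 were lower and 0 higher. Mitochondrially encoded genes gave 3937 CPM in control members, 4532 CPM in AURKA-high and 19870 CPM in PIWIL1-high barcodes.

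Against HMGB4-middle barcodes of the same library, 168 of 1716 genes (9.79%) were at least 2-fold higher in control members and 562 (32.8%) lower. Of 6 division genes 3 were higher and 0 lower, and of 11 chaperone and stress genes of the endoplasmic reticulum 5 were higher and 1 lower. UBE2S, the chain-elongating enzyme of the anaphase-promoting complex, was at 897.1 against 93.5 CPM (log2 3.26, 2.94 to 3.58). CENPF, a kinetochore protein, was at 497.1 against 84.3 CPM, PDIA3, a folding enzyme of the endoplasmic reticulum, at 662.9 against 120 CPM, and the heat shock protein HSP90AA1 at 5606 against 1031 CPM. Of 23 acrosome genes compared 15 were lower and 0 higher (median log2 -1.71), and of 19 late spermatid genes 15 were lower and 0 higher (median -1.90), against a median of -0.04 over all genes. ALLC, allantoicase, was at 22.9 against 707.0 CPM (4 and 1308 UMIs, log2 -4.95, -6.83 to -3.59).

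Within the ZEA library the members stood close to the barcodes just above the gate. Of 2118 genes, 37 (1.75%) were at least 2-fold higher in ZEA members than in ZEA HMGB4-middle barcodes and 181 (8.55%) lower. The lower genes included 7 of 18 late spermatid genes (median log2 -0.96), 4 of 22 acrosome genes (-0.50) and 2 of 7 chromatin genes (-0.74), beside -0.10 over all genes, and 0 of each list were higher. PRM3, of the protamine family, was at 137.8 CPM in ZEA members and 495.3 CPM in HMGB4-middle barcodes, and TNP1, transition protein 1, at 151.1 and 344.8 CPM. TNP1 had a UMI in 30 of 45 ZEA members, but its level there is close to the 144.3 CPM in the endothelial-marked barcodes (46.2% with a UMI), taken here as free RNA, and PRM3 stood at 95 CPM in them. The endothelial-marked barcodes had a median of 4243 UMIs and the ZEA members 10271, so equal CPM need not mean equal free RNA. How much of either value in the members is background was not tested.

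Other genes lower in the ZEA members than in the HMGB4-middle class were BANF2, a testis relative of the chromatin protein BANF1 (53.3 against 326.2 CPM, log2 -2.61, -3.58 to -1.79), and SCP2D1 (44.4 against 284.6 CPM, log2 -2.68, -3.75 to -1.78). FBP1, a gluconeogenic enzyme, was at 26.7 against 140.5 CPM. Higher ones were the heat shock proteins HSP90AA1 (3667 against 1757 CPM, log2 1.06, 0.95 to 1.18) and HSP90AB1 (457.8 against 169.9 CPM, log2 1.43, 1.08 to 1.77), the chaperone HSPA5 (515.6 against 254.5 CPM, log2 1.02, 0.70 to 1.32), UBE2S (244.4 against 109.7 CPM, log2 1.16, 0.68 to 1.61) and SYNE2, which links the nucleus to the cytoskeleton (306.7 against 114.7 CPM). Without the 5 ZEA members under 500 CPM of HMGB4, 14 of 1958 genes (0.715%) were higher and 134 (6.84%) lower. HSP90AA1 was then at 3730 CPM. In those 40 members HSP90AB1 was at 235 CPM, SYNE2 at 200 CPM and HSPA5 at 450 CPM, each of these below 2-fold of its HMGB4-middle level.

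Against ZEA HMGB4-high barcodes the members differed in more genes, 420 of 2068 (20.3%) higher and 529 (25.6%) lower. HSP90AA1 was at 3667 against 452.9 CPM and HSP90B1, its relative in the endoplasmic reticulum, at 2729 against 458.8 CPM. Late spermatid genes were lower in 16 of 20 (median log2 -1.60, against 0.16 over all genes), with SPEM1, of late spermatids, at 44.4 against 1126 CPM. Division genes were higher in 5 of 6 compared. SPEM1 in the members was below the 131.3 CPM of the endothelial-marked barcodes, and how much of it is background was not tested.

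A set of 5 ZEA members with HMGB4 under 500 CPM (91.7 to 474) stood apart from the other 40. All 5 had exactly 2 SPACA1 UMIs, and none had a UMI of ACRV1, LDHC, CREM or CCNA1. Of 991 genes compared with the other ZEA members, 81 (8.17%) were higher and 818 (82.5%) lower. The early response genes JUN and FOS stood at 3800 and 2160 CPM against 40 and 35 CPM, and FTH1, the ferritin heavy chain, at 2040 against 35 CPM. In the endothelial-marked ZEA barcodes JUN was at 5097, FOS at 2444 and FTH1 at 3130 CPM. Ribosomal protein genes summed to 109560 CPM against 29110, and mitochondrially encoded genes to 14600 against 245. GTSF1, of the piRNA pathway, was at 40 against 2850 CPM (1 and 570 UMIs, log2 -6.15, -11.5 to -3.67). Deep endothelial-marked barcodes (510) were the only somatic class among the ZEA profiles. The 16 deep ZEA barcodes with more than 4 UMIs of ACTA2 and DCN were too few to form one. With ZEA profiles to choose from, these 5 and the ZEA member of 26840 UMIs were most like the endothelial-marked class, and 39 of 45 ZEA members were most like the HMGB4-middle class. That class was the better match for all 35 control members too, since the ZEA library had no AURKA-high profile to offer.

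Marker genes of other testis cells, with those of the rule left out, were low in the members. Of 9 endothelial markers 8 were at 0 in the control members, whose sum was 5.71 CPM, and 5 were at 0 in the ZEA members (35.6 CPM, against 2003 CPM in deep endothelial-marked barcodes). Peritubular and smooth muscle markers summed to 5.71 CPM in control and 57.8 CPM in ZEA members, with 5 and 4 of 6 genes at 0. In the 5 ZEA members under 500 CPM of HMGB4 they summed to 400 CPM (10 UMIs), against 300 CPM in deep endothelial-marked barcodes. Endothelial markers summed to 80 CPM (2 UMIs) in those 5, and their cell type was not tested. Stromal markers gave 5.71 and 22.2 CPM (6 and 5 of 7 genes at 0), leukocyte markers 5.71 and 13.3 CPM (10 and 9 of 11 at 0), Sertoli markers 5.71 and 17.8 CPM (6 of 7 at 0 in each) and spermatogonial markers 11.4 and 8.89 CPM (5 and 6 of 7 at 0). All 4 Leydig markers were at 0 in both, which allows up to 3 UMIs in each sum. The part of these levels in the differences between the libraries was not tested.

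**Figure D3:**
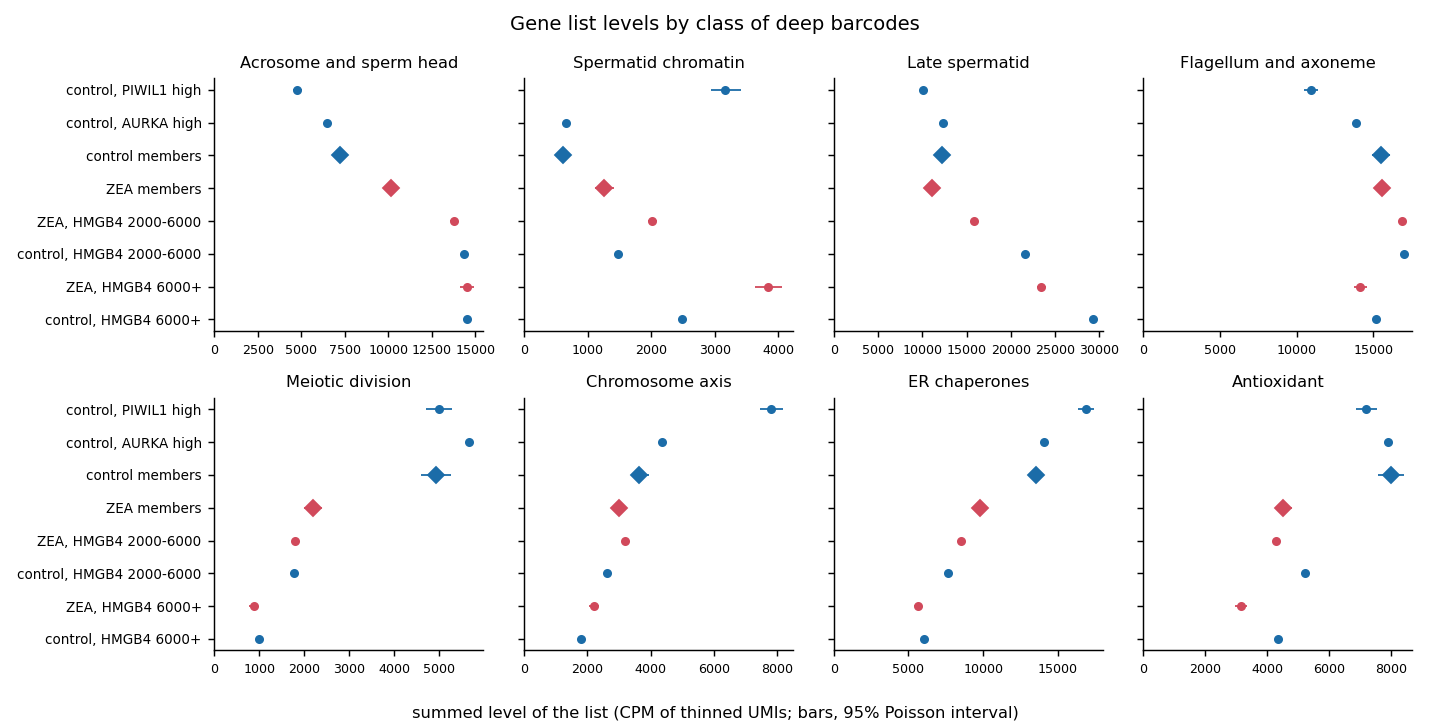
Summed level of gene lists (CPM of thinned UMIs) in each class of deep barcodes, with 95% Poisson intervals that cover counting error only. Division genes run from 5663 CPM in AURKA-high barcodes through 4926 in control and 2191 in ZEA members to 1788 and 1777 in the HMGB4-middle class, and acrosome genes run the other way.

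Between the libraries, ZEA members had more acrosome RNA and less division RNA than control members. Of 1647 genes compared, 296 (18.0%) were at least 2-fold higher in ZEA members and 226 (13.7%) lower, with a median log2 ratio of -0.11. The members of each library were most like different classes, so these ratios set unlike cells side by side, and the class of cell and the treatment cannot be told apart. Median scaling shifted all log2 ratios up by the same 0.11 and gave 318 higher and 178 lower genes. The members also differed in mitochondrially encoded RNA (a median of 0.341% of UMIs in control and 0.0106% in ZEA members), and its part in the ratios was not tested.

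Of 29 acrosome genes, 18 had the 50 UMIs needed to enter; 11 were higher in ZEA members and 0 lower, with a median log2 ratio of 1.33. That median turned to -1.71 with HMGB4 under 1000 CPM, which left 20 control and 7 ZEA members, 5 of the 7 being those under 500 CPM that were most like endothelial-marked barcodes. It was -0.11 over genes of at least 200 UMIs. EQTN, equatorin, was at 444.4 CPM in ZEA and 62.9 CPM in control members (log2 2.82, 1.92 to 3.87), with UMIs in 41 of 45 and 13 of 35. SPACA4, a membrane protein of the acrosome, ran from 0 to 1705 CPM in ZEA members (median 779) and from 0 to 672 in control members (median 180), so the 2 sets overlapped. Its summed level was 804.4 against 137.1 CPM (log2 2.55, 1.93 to 3.23). SPACA3, a lysozyme-like acrosomal protein, was at 751.1 against 165.7 CPM (log2 2.18, 1.61 to 2.80), and its relative LYZL4 at 702.2 against 217.1 CPM (log2 1.69, 1.17 to 2.24). In endothelial-marked ZEA barcodes SPACA4 was at 60.4, SPACA3 at 80.6, EQTN at 32.0 and LYZL4 at 43.5 CPM. SPACA1 belongs to the rule and was left out of the list, with a median of 2 UMIs in control and 5 in ZEA members. Acrosome genes expressed beside SPACA1 or HMGB4 are not free of the choice of members.

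Among the 4 acrosome genes with the most UMIs, 3 had lower values in ZEA members, short of 2-fold. ZPBP, a zona pellucida binding protein, was at 840 CPM in ZEA and 1594 CPM in control members, and in single barcodes it ran from 0 to 1621 CPM (median 916) against 693 to 2623 (median 1469). SPATA16, of the Golgi and acrosome, was at 1022 against 1463 CPM, and SPESP1, of the equatorial segment, at 804.4 against 868.6 CPM. Both ZPBP and SPATA16 stood near the control members' level in AURKA-high barcodes (1388 and 1486 CPM) and lower in HMGB4-middle barcodes (1003 and 1077 CPM in the control library). SPATA46 was higher, at 804.4 against 388.6 CPM, and at 1285 CPM in ZEA HMGB4-middle barcodes.

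**Figure D4:**
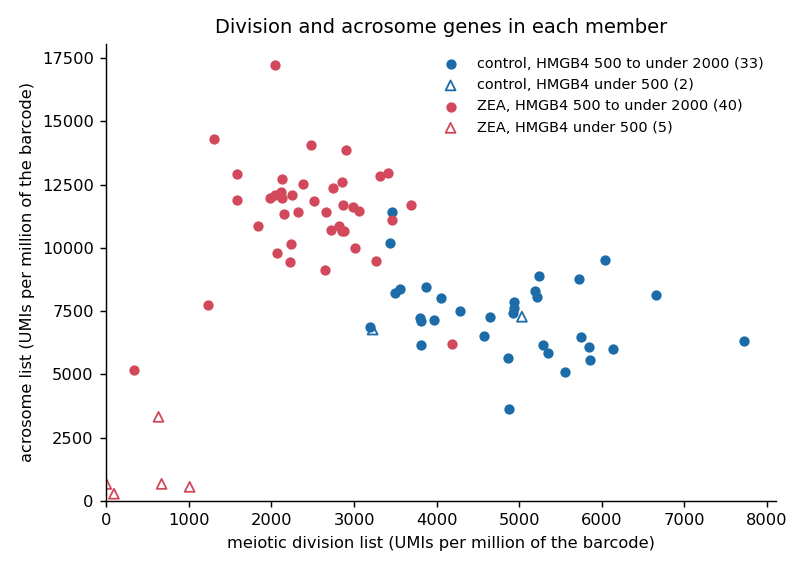
Sum of the acrosome list against that of the meiotic division list in CPM of the barcode, 1 point per member. Control members span 3191 to 7726 for division and 3620 to 11405 for acrosome genes, and ZEA members 0 to 4191 and 279 to 17218, so the ranges overlap on both axes.

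Division genes lay the other way. Of 30 in the files 10 entered, 6 were lower in ZEA members and 0 higher, with a median log2 ratio of -1.08. UBE2S ran from 236 to 1481 CPM in control members (median 887) and from 0 to 924 in ZEA members (median 222), and its summed level was 244.4 against 897.1 CPM (log2 -1.88, -2.35 to -1.42). CENPF was at 231.1 against 497.1 CPM (log2 -1.11, -1.63 to -0.59). PLK1, a mitotic and meiotic kinase, was at 373.3 against 622.9 CPM and CCNB2, cyclin B2, at 395.6 against 657.1 CPM. CCNA1, the cyclin A of the male germ line, had UMIs in 28 of 35 control members (median 221 CPM) and 26 of 45 ZEA members (median 84.8). HMGB4-middle barcodes held CCNA1 at 47.0 CPM (control) and 64.5 CPM (ZEA). AURKA belongs to the rule and was left out of the list, but genes expressed beside it are not free of that choice.

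For genes of transcription and of stored mRNA the counts were small and near the 18.0% higher and 13.7% lower over all genes. Of 5 entering regulators 1 was higher and 0 lower (median log2 0.25). CREM, a master activator of spermatid genes, had UMIs in 30 of 35 control members (median 148 CPM) and 39 of 45 ZEA members (median 318), and stood at 194.3 and 257.8 CPM. TCFL5, a transcription factor of spermatocytes, was at 337.8 against 657.1 CPM (log2 -0.96, -1.40 to -0.53), and BRDT, a testis bromodomain protein, at 488.9 against 411.4 CPM. Among 9 genes of RNA storage 0 were higher and 1 lower (median -0.45). YBX3, which binds stored mRNA, was at 2293 against 3131 CPM (log2 -0.45, -0.63 to -0.27), DDX25, a helicase of the chromatoid body, at 1244 against 2074 CPM (log2 -0.74, -0.97 to -0.51) and SPATA6 at 2138 against 1623 CPM.

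Chromatin genes were sparse, with 3 of 11 entering, too few to set apart from the 18.0% higher and 13.7% lower over all genes. Of these 3, 2 were higher in ZEA members and 0 lower. EPC1, a subunit of a histone acetyltransferase complex, was at 435.6 against 182.9 CPM (log2 1.25, 0.66 to 1.88). CDYL, a chromodomain protein, was at 213.3 against 45.7 CPM, with UMIs in 37 of 45 ZEA and 7 of 35 control members and 62.5 CPM in endothelial-marked ZEA barcodes. TNP1 was at 151.1 against 131.4 CPM. H1-6 had no thinned UMI in the ZEA members, where 3 UMIs could be missed.

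Of 13 entering late spermatid genes 5 were higher and 1 lower (median log2 0.67), beside 18.0% and 13.7% over all genes. The median was -2.03 with HMGB4 under 1000 CPM and -0.31 over genes of at least 200 UMIs. SPATA19, a mitochondrial protein of spermatids, was at 840 against 240 CPM (log2 1.81, 1.32 to 2.33), the kinase TSSK4 at 408.9 against 97.1 CPM (log2 2.07, 1.32 to 2.91) and the thioredoxin TXNDC8 at 377.8 against 114.3 CPM (log2 1.72, 1.01 to 2.51). All 3 were higher still in ZEA HMGB4-middle barcodes, with SPATA19 at 1376, TSSK4 at 517.6 and TXNDC8 at 717.6 CPM. HSPB9, a small heat shock protein of the testis, had the most UMIs of the list and stood at 3044 against 4829 CPM. Of 27 flagellum genes 4 were higher and 2 lower, with a median of -0.06 that lay on either side of 0 under other settings. SPEF2, a flagellar assembly protein, was at 404.4 against 177.1 CPM, and RSPH1, a radial spoke protein, at 133.3 against 731.4 CPM (log2 -2.46, -3.08 to -1.87). ROPN1L, of the fibrous sheath, was at 2200 and 2291 CPM, and ODF2, of the outer dense fibres, at 946.7 and 1017 CPM.

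Counts for genes of meiosis and metabolism are too small to set apart from the 18.0% higher and 13.7% lower over all genes. Of 11 entering axis and recombination genes 3 were higher and 2 lower (median log2 -0.41). SYCE1, of the synaptonemal complex, was at 782.2 against 1183 CPM, SYCP2 at 275.6 against 428.6 CPM and HSF2BP, a recombination factor, at 342.2 against 160 CPM. Of 6 pachytene genes 0 were higher and 1 lower. LDHC, the lactate dehydrogenase of germ cells, ran from 238 to 2002 CPM in control members (median 1210) and from 0 to 1822 in ZEA members (median 554), at 568.9 against 1211 CPM (log2 -1.09, -1.42 to -0.77). GTSF1 was at 2538 against 1537 CPM (log2 0.72, 0.51 to 0.94; -1.62 with HMGB4 under 1000 CPM), and CLGN, calmegin, a chaperone of the endoplasmic reticulum in germ cells, at 2413 against 3794 CPM. Among 7 glycolysis genes 1 was higher and 3 lower (median -0.59), LDHA among them at 106.7 against 485.7 CPM (log2 -2.19, -2.91 to -1.52).

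Of 14 entering chaperone and stress genes of the endoplasmic reticulum 1 was higher and 2 lower in ZEA members (median log2 -0.63), no more than the 18.0% and 13.7% over all genes would give, and the antioxidant and Golgi counts below are as small. PDIA3 was at 240 against 662.9 CPM (log2 -1.47, -1.96 to -0.99), HSPA5 at 515.6 against 1000 CPM (log2 -0.96, -1.31 to -0.61, but 0.12 with HMGB4 under 1000 CPM) and CALR, calreticulin, at 537.8 against 1000 CPM. HSP90B1 was at 2729 and 2960 CPM. Of 4 antioxidant genes 0 were higher and 1 lower (median -0.88), with the glutathione transferase GSTM3 at 3284 against 5874 CPM (log2 -0.84, -0.98 to -0.70) and the peroxiredoxin PRDX5 at 564.4 against 1063 CPM. Of 7 Golgi and transport genes 1 was higher and 1 lower, GOLGA4, a golgin of the trans Golgi, at 435.6 against 165.7 CPM and GORASP2, a Golgi stacking protein, at 293.3 against 685.7 CPM.

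Few genes of cell death and steroid action had enough UMIs to be compared. At least 1 thinned UMI was present in ZEA members for 11 of 18 apoptosis and 6 of 13 steroid genes. Of 18 apoptosis genes only MCL1, which opposes cell death, entered, at 231.1 CPM in ZEA and 365.7 CPM in control members. BIRC2, an inhibitor of apoptosis, was at 88.9 CPM (20 UMIs) and 17.1 CPM (3 UMIs), and BAX had 0 thinned UMIs in both. ESR1 and ESR2, the oestrogen receptors, had 0 thinned UMIs in both libraries, with upper bounds of 21.1 CPM for control members and 16.4 CPM for ZEA members. None of 13 genes of steroid receptors and metabolism entered, and FDX1, ferredoxin 1, had the most UMIs of them, at 66.7 CPM in ZEA and 91.4 CPM in control members.

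Outside the lists, the largest ratios towards ZEA members among genes of at least 200 UMIs were those of ANAPC2, the cullin subunit of the anaphase-promoting complex (1107 against 188.6 CPM, log2 2.55, 2.03 to 3.12), AIF1 (786.7 against 154.3 CPM, log2 2.35, 1.76 to 2.99), TMCO2 (1333 against 262.9 CPM, log2 2.34, 1.89 to 2.82) and ACTRT3, an actin-related protein of the sperm head (906.7 against 222.9 CPM, log2 2.02, 1.52 to 2.56). TSGA10, a testis protein of the sperm tail, was at 1284 against 342.9 CPM and had UMIs in 44 of 45 ZEA and 33 of 35 control members. BOLA1, FAIM2 and CISD1 had log2 ratios of 1.63, 1.49 and 1.41. AIF1 is also a macrophage gene, and 2 of 11 leukocyte markers had a thinned UMI in ZEA members. HMGB4-middle barcodes held ANAPC2 at 1404 CPM (control) and 1515 CPM (ZEA), and AIF1 at 1224 and 1327 CPM.

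Large ratios towards control members were those of RUVBL1, a chromatin remodelling ATPase (271.1 against 1040 CPM, log2 -1.94, -2.38 to -1.51), and PSMB10, a proteasome subunit (288.9 against 1086 CPM, log2 -1.91, -2.34 to -1.50). RUVBL1 ran from 382 to 1876 CPM in control members (median 1073) and from 0 to 837 in ZEA members (median 202), so that the ranges overlapped. It was at 1037 CPM in AURKA-high barcodes and 245.4 CPM in control HMGB4-middle barcodes. CFAP97, TCEA2, DRG1, CIB1, MRPL39 and PSMB5 had log2 ratios from -1.85 to -1.36. Near-identical copies of a gene can share reads, with the counting of such reads not given in the sources used here.

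**Figure D5:**
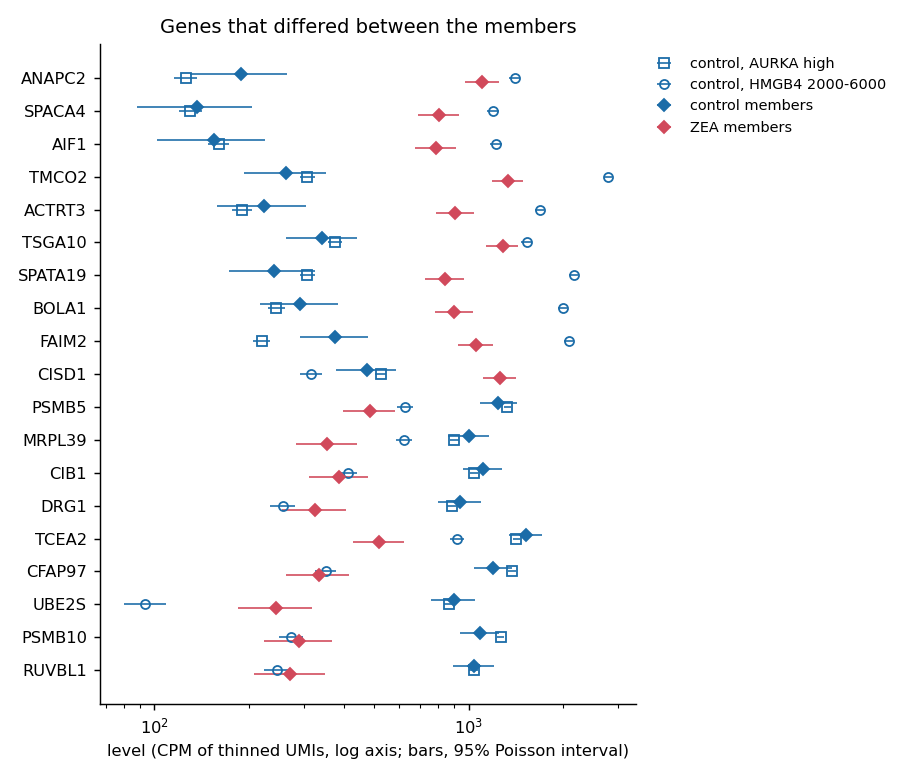
Level of genes with large ratios between the members of the 2 libraries (CPM of thinned UMIs, log axis, with 95% Poisson intervals), beside their level in neighbouring classes. ANAPC2 and RUVBL1 stand near the AURKA-high level in control members and closer to the HMGB4-middle level in ZEA members.

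The ratios between the libraries were also taken without the 5 ZEA members under 500 CPM of HMGB4. Of 1598 genes, 301 (18.8%) were higher and 184 (11.5%) lower in the 40 others than in control members. Acrosome genes stayed at 11 of 18 higher (median log2 1.45), and lower division genes went from 6 to 3 of 10 (median -0.91). Ribosomal protein genes, 4 higher and 1 lower of 31 with all members, were 0 higher and 4 lower of 30 without the 5. Mitochondrially encoded genes went from 3 of 7 lower (median -0.88) to 4 of 4 lower (median -4.31).

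ZEA members were also set against control HMGB4-middle barcodes, the control class most of them resembled. Of 2041 genes, 104 (5.10%) were higher and 333 (16.3%) lower in ZEA members. Late spermatid genes were lower in 13 of 19 (median log2 -1.33), acrosome genes in 6 of 23 (-0.42) and 0 of either list were higher. HSP90AA1 was higher (3667 against 1031 CPM, log2 1.83, 1.71 to 1.95), as were CISD1, an iron-sulphur protein of mitochondria (1258 against 315.7 CPM, log2 1.99, 1.78 to 2.20), and KTN1, kinectin (1302 against 440 CPM). TUBA8, a tubulin, was at 8.89 against 172.4 CPM (2 and 319 UMIs, log2 -4.28, -7.33 to -2.41). ZEA HMGB4-middle barcodes had 1093 CPM of CISD1, 1105 of KTN1, 76.0 of TUBA8 and 1757 of HSP90AA1, so CISD1 and KTN1 differed about as much between the libraries in that class. By the gate, HMGB4 is lower in the members than in that class. The HMGB4-middle classes of the 2 libraries differed by at least 2-fold in 303 (5.98%, higher in ZEA) and 161 (3.18%, lower) of 5066 genes.

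Within the control library the members varied little along HMGB4. Between the 15 members at 1000 to 2000 and the 18 at 500 to 1000 CPM, 5 of 733 genes (0.682%) were at least 2-fold higher and 2 (0.273%) lower, and no gene of 200 UMIs reached 2-fold. None of the 5 acrosome and 5 division genes compared reached 2-fold, with medians of -0.25 and -0.14. With 2 control members under 500 CPM, and 2 ZEA members at 500 to 1000, no further range could be read.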

How the data were processed

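The authors deposited raw UMI counts per gene and barcode for each of the 2 libraries. Cell Ranger 3.1.0 and STAR are named in the submitters' processing notes. Per the file headers, version 5.0.0 made the control matrix and version 3.1.0 the ZEA one, so software and group cannot be told apart, with build, annotation and barcode selection not given in the sources used here. Of 27054 genes listed, 10636 have no symbol: they were counted and are not named.

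Members met the rule in the unthinned counts. Each barcode was thinned once without replacement to 5000 UMIs (seed 1), and thinned counts were summed per class and given as CPM (Python 3.11.15, numpy 2.4.6, scipy 1.17.1, Scrublet in scanpy 1.11.5). Intervals are exact 95% ones, Poisson for levels, Clopper-Pearson for shares and conditional binomial for log2 ratios. With 1 library per group there was no test, and called means 2-fold or more. Genes of at least 50 UMIs over the 2 sums entered. Comparisons with other classes also required 20 UMIs expected in the smaller class, a minimum chosen after class sizes were seen. A count of 0 was set to 3 for a ratio. Named genes were the 4 of most UMIs in each list, the list members of largest ratio with at least 100 UMIs, and the 10 highest and 10 lowest ratios between libraries (6 and 6 against each class) among genes of at least 200 UMIs and 2-fold (50 UMIs for the 5 ZEA members under 500 CPM of HMGB4); a selection of these is printed, 2 genes are not reported here, and further genes were named after their values were seen. Genes of the rule were left out of the lists.

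The planned ratio of the highest to the lowest HMGB4 range was not read because the lowest range held 2 control members; the 2 upper ranges were compared in its place. Members and gene lists were chosen with earlier results of these data known. The likeness measure, with a pseudocount of 0.5 per gene, the split at 500 CPM of HMGB4 and the comparisons between ZEA and control classes were chosen after the data were seen. The scripts were tested on simulated counts.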

Additional observations from a re-analysis of the deposited data

How the results depend on the processing

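No paired analysis was possible because each group has 1 library, and no replicate could be left out. The members' share of deep barcodes in the ZEA library was 5.76% with at least 8000 UMIs and 12.9% with HMGB4 under 3000 CPM, where 625 genes were higher in ZEA members. With HMGB4 under 1000 (20 control and 7 ZEA members) the shares were 0.588% in control and 0.616% in ZEA, with 63 genes higher and 349 lower, and the medians of the acrosome and late spermatid lists turned to -1.71 and -2.03; 5 of those 7 ZEA members were the ones most like endothelial-marked barcodes. With 4 or more SPACA1 UMIs the shares were 0.147% and 2.46%, with 184 genes higher and 58 lower, and 5 control members were left. The medians of 5 lists (regulators, flagellum, pachytene, glycolysis and Golgi) then changed sign. The cause of these shifts was not tested. Without thinning 500 genes were higher and 393 lower, and without a minimum of UMIs 1362 and 1213. A minimum of 200 UMIs left fewer genes, 39 higher and 35 lower, and an acrosome median of -0.11. Of alternatives chosen after seeing the data, AURKA of at most 1 UMI (4 control and 30 ZEA members) gave shares of 0.118% and 2.64%, with 168 genes higher and 73 lower. HMGB4 of 500 to under 2000 gave 303 and 173. Counts stayed within 1.5 times under the other alternatives, which were another seed, the gates applied to thinned barcodes, members of 5000 to 15000 UMIs, no barcode over 30000 UMIs, no marked doublet, median scaling and weighting by HMGB4 range. Of 187 list medians over all settings, 105 were labelled as within their spread, 80 as moved and 2, both of the acrosome list, as reversed. The last label did not take in every change of sign, since the late spermatid list and the 5 lists named above also changed sign. Of 919 values of named genes 830 stayed and 89 moved. Depth limits genes under about 50 UMIs.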
